A study of Schizosaccharomyces pombe with 12 samples.

Results

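The genes described here are the ribosome biogenesis genes of the fission yeast Schizosaccharomyces pombe. They were taken from the product descriptions in the deposited tables: protein-coding genes whose product names rRNA processing, ribosome biogenesis, the U3 snoRNP, another snoRNP or the processome, leaving out 5 listed genes, rrp6 among them, and products that name an RNA polymerase. The rule found 89 of 6888 genes in the tables. By the same descriptions they fall into 29 U3 snoRNP genes, 5 genes of other snoRNPs, 21 rRNA processing genes and 34 genes described as ribosome biogenesis. Their RNA was measured in 4 strains with 3 samples each. The med20Δ strain is labelled h+ leu1-32 ura4-D18 with med20 replaced by a NAT marker. The rrp6Δ strain is labelled h- with Leu1-32, His2, an altered Ura4 allele (DS/E), a KanMx6 replacement of rrp6 and a ura+ insertion at Otr1R. The med20Δ rrp6Δ strain carries both replacements with leu1-32 and ura4-D18, and its label gives no mating type. The wild type (WT) is the h- strain L972, so the auxotrophic alleles differ between the mutants and WT, and by label among the mutants, along with the deletions. Med20 belongs to Mediator, which passes signals from transcription factors to RNA polymerase II. Rrp6 degrades and trims RNA from its end as a nuclear exosome enzyme. Cells grew in rich liquid medium at 30 degrees and were harvested in log phase. RNA with a poly(A) tail was selected before sequencing.

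Ribosomes are built in the nucleolus, where RNA polymerase I makes a long precursor rRNA. The U3 snoRNP and the proteins of the small-subunit processome fold and cut the part that becomes the small subunit, box H/ACA snoRNPs convert uridines to pseudouridine, and further factors trim the spacers, assemble the large subunit and bring both subunits to the cytoplasm. In yeasts the genes for these factors are known to be transcribed at high rates in growing cells and to be turned down together in poor medium or under stress. The nuclear exosome, with Rrp6, trims the rRNA precursors that these proteins release.

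All levels below are normalised counts: reads per gene in a library divided by that library's size factor. The tables give group means only, and the counts of each library were recovered from those means. The 3 libraries of a strain are therefore numbered 1 to 3 by their recovered size factor and cannot be matched to the samples' letters. Recovered libraries held 8936170 to 12037378 counts in shared genes. Recovery gave all 12 values for 88 of the 89 genes, and the missing one, gar1, is given from the authors' deposited tables. Fold changes are log2 differences of normalised count + 1 with their standard error (SE). They were tested with limma over 6097 genes in 1 model of all 4 strains, and a gene was called at a Benjamini-Hochberg adjusted p under 0.05. The samples are called biological replicates without saying whether they were separate cultures, and p-values measure no more than the spread among them.

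The deleted genes were low in the strains labelled as lacking them. Counts of med20 lay between 2.5 and 6.3 in med20Δ and between 20.2 and 29.8 in med20Δ rrp6Δ, against 681.3 to 732.2 in WT. Counts of rrp6 were at most 2.9 in rrp6Δ and 1.9 in med20Δ rrp6Δ, against at least 1105 in WT. The marker ura4 went against a label: it stood at 2102 to 2762 in med20Δ, which is labelled ura4-D18, and at 1.9 to 5.3 in med20Δ rrp6Δ, against 2032 to 2711 in WT. The M-cell gene mam1 stood at 570.5 to 684.6 in med20Δ, labelled h+, and at 495.3 to 958.4 in WT, labelled h-, so it did not separate the mating types. In each strain 1 library (WT 1, med20Δ 1, rrp6Δ 2 and med20Δ rrp6Δ 2) lay apart from the others on a component that held 46.4% of the variance within strains. Strain means were removed before this component was computed, so 1 library of each strain must differ in sign from the others. The scores in med20Δ, for example, were -22.24, 15.39 and 6.847. Of the ribosome biogenesis genes, 56 of 88 were on the positive side of that component, away from those 4 libraries, against 48.3% of all genes tested and 3 of 22 core stress genes. Results below are given with these libraries, and the counts that lead are repeated without them. In poly(A)-selected RNA from a whole culture, fewer cells that express a gene and less RNA per cell cannot be told apart.

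The DNA before the genes was searched for elements known from ribosomal genes in yeasts, on both strands of the 250 bases before each gene start (RefSeq annotation of assembly ASM294v3). HomolD (CAGTCACA) and HomolE, whose letters stand second in capitals in the mpp10 sequence below, are promoter elements of ribosomal protein genes in S. pombe. HomolD was found before 2 of the 89 ribosome biogenesis genes, rlp7 and mpp10, against 84 of 131 cytosolic ribosomal protein genes and 2.63% of 5097 protein-coding genes. HomolE was found before 1 of 89, mpp10, against 40 of 131 ribosomal protein genes and 1.22% of protein-coding genes. Further elements were searched after values had been seen, because they are known before ribosome biogenesis genes in Saccharomyces cerevisiae. The core of the rRNA processing element (AAAAATTTT) occurred before 12 of the 89 genes, or 13.5%, against 3 of 131 ribosomal protein genes and 4.75% of protein-coding genes. The PAC element (GCGATGAG) occurred before 0 of the 89 and 0.177% of protein-coding genes. The element AAAAATTTT is made of A and T, and A and T made up a median of 70.0% of these 250 bases before the ribosome biogenesis genes and 68.0% before protein-coding genes. The sequences below show both genes with HomolD and 3 genes with the A and T rich element that were lower in med20Δ rrp6Δ; each is read 5′ to 3′ towards the gene, elements are in capitals. AAAATTTTT is the copy of AAAAATTTT on the other strand, and the longer run in pwp2 holds a copy on each strand, overlapping.
rlp7, chrI:1712635-1712784, plus strand: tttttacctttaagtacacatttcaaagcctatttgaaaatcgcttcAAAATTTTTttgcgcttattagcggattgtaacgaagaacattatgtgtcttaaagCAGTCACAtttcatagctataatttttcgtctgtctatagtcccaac
mpp10, chrI:2135848-2135877, plus strand: tccaaaaCAGTCACAaACCCTACCCTtctt
SPBC16H5.08c, chrII:2284214-2284363, plus strand: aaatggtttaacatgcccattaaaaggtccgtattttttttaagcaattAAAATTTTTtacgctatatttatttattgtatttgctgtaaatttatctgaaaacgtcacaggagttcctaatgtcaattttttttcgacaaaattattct
bmt5, chrIII:2237158-2237307, minus strand: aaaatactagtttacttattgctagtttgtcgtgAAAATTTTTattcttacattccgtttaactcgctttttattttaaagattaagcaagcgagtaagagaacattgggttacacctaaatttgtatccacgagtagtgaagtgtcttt
pwp2, chrII:876064-876213, minus strand: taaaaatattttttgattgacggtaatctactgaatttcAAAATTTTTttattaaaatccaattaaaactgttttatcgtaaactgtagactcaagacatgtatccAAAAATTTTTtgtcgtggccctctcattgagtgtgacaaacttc
In mpp10 the HomolD copy ends at base -71 from the gene start and HomolE begins at -69, 1 base further on, and all 30 bases shown lie in annotated exons of a neighbouring mRNA. In rlp7 HomolD lies at -47 to -40. In SPBC16H5.08c, bmt5, pwp2 and rlp7 a copy of AAAAATTTT begins between -116 and -101. Neither gene with HomolD was called in med20Δ rrp6Δ against WT: rlp7 had a log2 fold change of 0.45 (95% interval -0.09 to 0.98) and mpp10 had -0.53 (-1.01 to -0.05), with adjusted p-values of 0.191 and 0.0892 in limma. Of the 28 genes called lower in that comparison, 5 had AAAAATTTT and 0 had HomolD or HomolE.

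Per kilobase of coding sequence, the WT level of the 88 recovered ribosome biogenesis genes spanned 158 to 28245 normalised counts. The order below leaves out gar1, which was not recovered and whose deposited WT means are also high. The highest were nop10 at 28245 and snu13 at 16841, which encode small core proteins of the H/ACA and C/D snoRNPs. They were followed by SPBC16H5.08c at 12529, an ATPase of the Arb (ABCF2-like) family, rli1 at 11834, an iron-sulphur ATPase that also acts in translation, nop56 at 9192, a core C/D snoRNP protein, and rlp7 at 9110. The lowest were utp20 at 203, a large scaffold protein of the processome, shq1 at 168, an assembly factor of H/ACA snoRNPs, and SPBC56F2.07c at 158, described as an AAA ATPase that recycles biogenesis factors. The level of a small abundant gene could vary widely within a strain: snu13 had 3417, 8259 and 7422 normalised counts in WT libraries 1 to 3, with the low value in the library that lies apart.

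**Figure D1:**
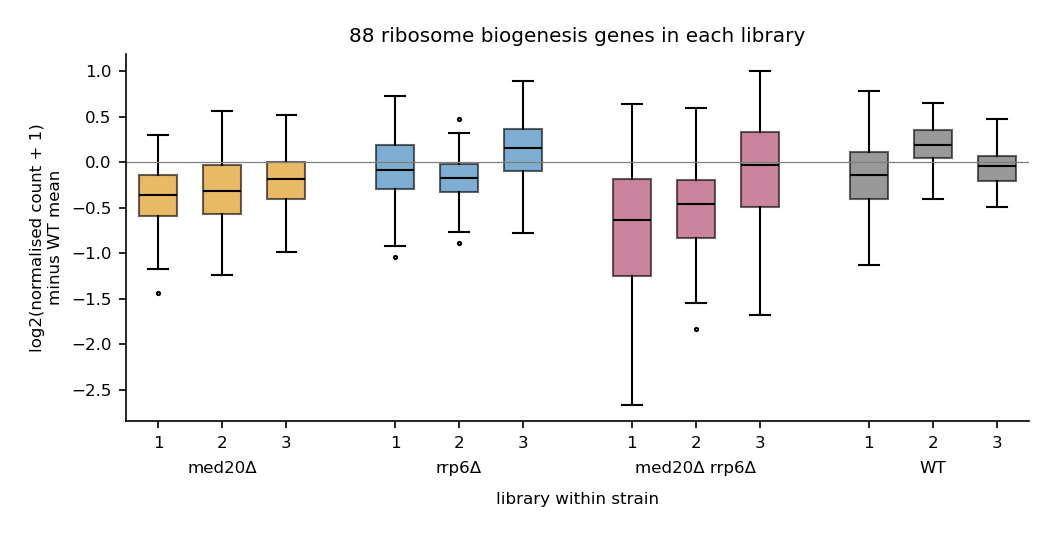
For each of the 12 libraries, boxes give the median and quartiles of 88 ribosome biogenesis genes as the difference of log2(normalised count + 1) from the WT mean (whiskers to 1.5 times the box height, points beyond). Medians are -0.36, -0.32 and -0.19 in med20Δ, -0.08, -0.18 and 0.16 in rrp6Δ, -0.64, -0.46 and -0.03 in med20Δ rrp6Δ and -0.14, 0.19 and -0.05 in WT.

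Summed over the 88 genes, the level was 186118, 187427 and 201704 normalised counts in med20Δ. It was 202625, 215623 and 231232 in rrp6Δ, and 132568, 167413 and 194315 in med20Δ rrp6Δ. The WT libraries 1 to 3 held 256798, 250005 and 226419. By this sum every library of med20Δ and of med20Δ rrp6Δ lay below every WT library, while the sums of rrp6Δ and WT overlapped. The most abundant genes weigh most in the sum. By the median over the 88 genes, med20Δ rrp6Δ library 3 lay at -0.03 from the WT mean on the log2 scale. That is within the WT libraries, at -0.14, 0.19 and -0.05.

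In med20Δ rrp6Δ against WT, 28 of the 88 genes fell and 0 rose. They include 10 U3 snoRNP genes, 5 rRNA processing genes and 13 described as ribosome biogenesis, with log2 fold changes from -0.64 for tsr1 to -1.86 for SPBC16H5.08c. In this comparison 15.4% of all genes tested were called lower and 15.5% higher, while 31.8% of the ribosome biogenesis genes were lower. Among protein-coding genes alone, 17.6% were lower and 8.71% higher, with a median log2 fold change of -0.17. The authors' deposited table calls 15 of the 89 lower and 0 higher at an adjusted p under 0.05 (DESeq), against 6.71% of its genes lower and 8.59% higher, and all 15 are also among the 28. The median log2 fold change of the genes was -0.40, against -0.07 for all genes tested. In 27 of 88 all 3 libraries lay below all 3 WT libraries, against 21.9% of all genes and 1222 of 4833 protein-coding genes. Scaled by total counts instead of size factors, the median of all genes moved to 0.36 and that of the ribosome biogenesis genes to 0.03, so that the biogenesis genes stayed 0.33 below all genes while their median changed sign, and 10 were called lower and 6 higher. The count rests partly on single libraries: it was 13 without med20Δ rrp6Δ library 1, which has the largest size factor (1.6128), 17 without WT library 2, and 26 without the 4 libraries that lie apart.

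**Figure D2:**
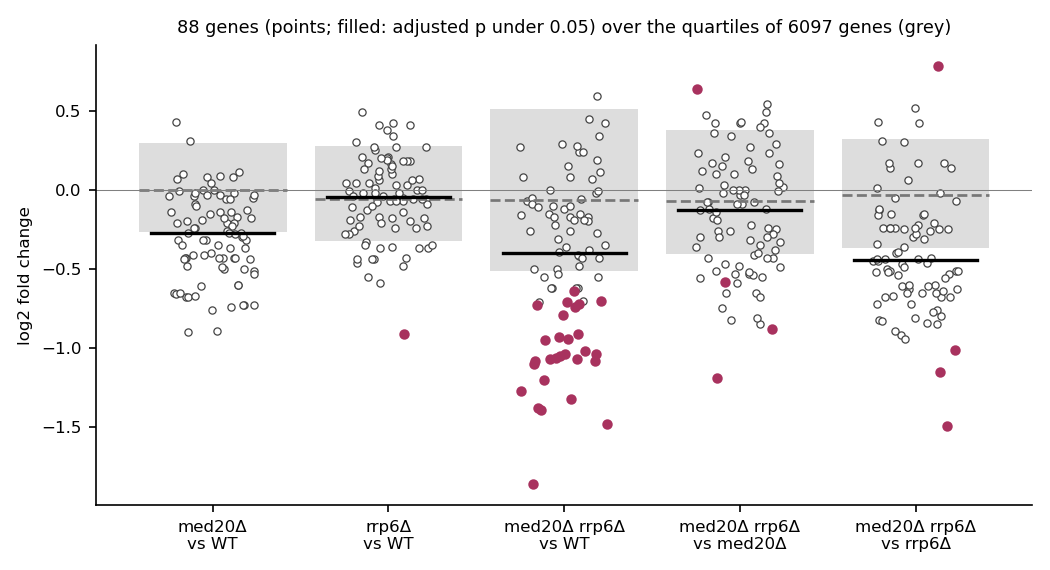
Each point is 1 of 88 ribosome biogenesis genes, with its limma log2 fold change in 5 comparisons; filled points have an adjusted p under 0.05. Black lines mark the median of the 88 genes (-0.27, -0.04, -0.40, -0.13 and -0.44 from left to right), dashed lines and grey bands the median and quartiles of all 6097 genes tested.

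Among the U3 snoRNP genes, 10 of 29 (34.5%) fell in med20Δ rrp6Δ and 0 rose, with a median log2 fold change of -0.53. Protein-coding genes had 17.6% lower and a median of -0.17. The lowest value was that of utp21. This WD-repeat protein of the UTP-B complex in S. cerevisiae (chrIII:575484-578495) had 1146, 2578 and 2155 normalised counts in med20Δ rrp6Δ, against 8275, 3900 and 3468 in WT. Its groups did not overlap, and the high WT value is that of library 1. The log2 fold change was -1.38 ± 0.36 SE (limma adjusted p = 0.0113), and the call was lost without med20Δ rrp6Δ library 1 (-1.03, adjusted p = 0.0614). utp13 and pwp2 belong to the same complex and fell by 1.20 ± 0.27 and 1.08 ± 0.30 on the log2 scale (adjusted p = 0.00499 and 0.0152 in limma). utp13 had 533.2, 967.6 and 859.9 normalised counts in med20Δ rrp6Δ, against 2274, 1698 and 1403 in WT. pwp2 had 1686, 3277 and 3624 in med20Δ rrp6Δ, against 7570, 5473 and 4568 in WT. For both genes every mutant library lay below every WT library. utp6, also of UTP-B in S. cerevisiae, was not called and stood near 0 (-0.16 ± 0.25, limma adjusted p = 0.659).

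Of the called U3 snoRNP genes, 3 belong to the UTP-A complex of S. cerevisiae, which binds the start of the precursor. nan1 had 928.2, 1593 and 2103 normalised counts in med20Δ rrp6Δ, against 3694, 3735 and 3183 in WT (log2 -1.27 ± 0.28, limma adjusted p = 0.0037). utp10, a very long protein, had 2124, 3721 and 4155 in med20Δ rrp6Δ, against 7386, 6612 and 6363 in WT (log2 -1.08 ± 0.25, limma adjusted p = 0.00529). Neither overlapped with WT. utp4 fell less, to 566.1, 851.9 and 1235 in med20Δ rrp6Δ, against 1750, 1440 and 1110 in WT, and there the ranges overlapped (log2 -0.74 ± 0.26, limma adjusted p = 0.0406). utp15, of the same complex, had a log2 fold change of -0.70 ± 0.34 and was not called (adjusted p = 0.129 in limma). utp5, another UTP-A gene, stood at -0.22 ± 0.20 and was not called either (limma adjusted p = 0.429).

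SPAC8F11.04, described as a U3-associated protein of the Cic1/Utp30 family (chrI:2859414-2861935), had 1443, 1855 and 2576 normalised counts in med20Δ rrp6Δ, against 4442, 4918 and 4958 in WT. With groups far apart and a tight WT, this was the U3 gene with the smallest adjusted p in limma (0.000542, log2 -1.32 ± 0.22). Another gene of that family, SPCC306.07c, fell by 0.70 ± 0.22 on the log2 scale (limma adjusted p = 0.0243). rrp5, an RNA-binding protein needed for both subunits, had 2316, 2671 and 3258 in med20Δ rrp6Δ, against 6310, 6399 and 4410 in WT (log2 -1.05 ± 0.26, limma adjusted p = 0.00881).

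Of the genes for proteins that sit on the snoRNA itself, nop56 fell. It had 6775, 8633 and 10015 normalised counts in med20Δ rrp6Δ, against 13227, 13862 and 14111 in WT, with no overlap (log2 -0.71 ± 0.21, limma adjusted p = 0.02). Its partner nop58 had 3336, 2463 and 5083 in med20Δ rrp6Δ, against 3173, 6006 and 4891 in WT, and the ranges overlapped (log2 -0.39, 95% interval -1.07 to 0.30). snu13 had a log2 fold change of 0.19 with an interval from -0.61 to 0.98. The U3-specific protein gene rrp9 stood at -0.50 ± 0.35. The Mpp10-Imp3-Imp4 group, which joins the U3 snoRNA to the precursor, gave -0.53 ± 0.22 for mpp10, -0.31 ± 0.18 for imp3 and -0.42 ± 0.28 for imp4. None of these 6 genes passed the test, and neither did sof1 (-0.71 ± 0.32). utp20, at -0.62 ± 0.24, was the uncalled gene nearest the threshold (adjusted p = 0.0621 in limma). At the other end utp16 had the highest value of the U3 genes, 0.28 ± 0.26.

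**Figure D3:**
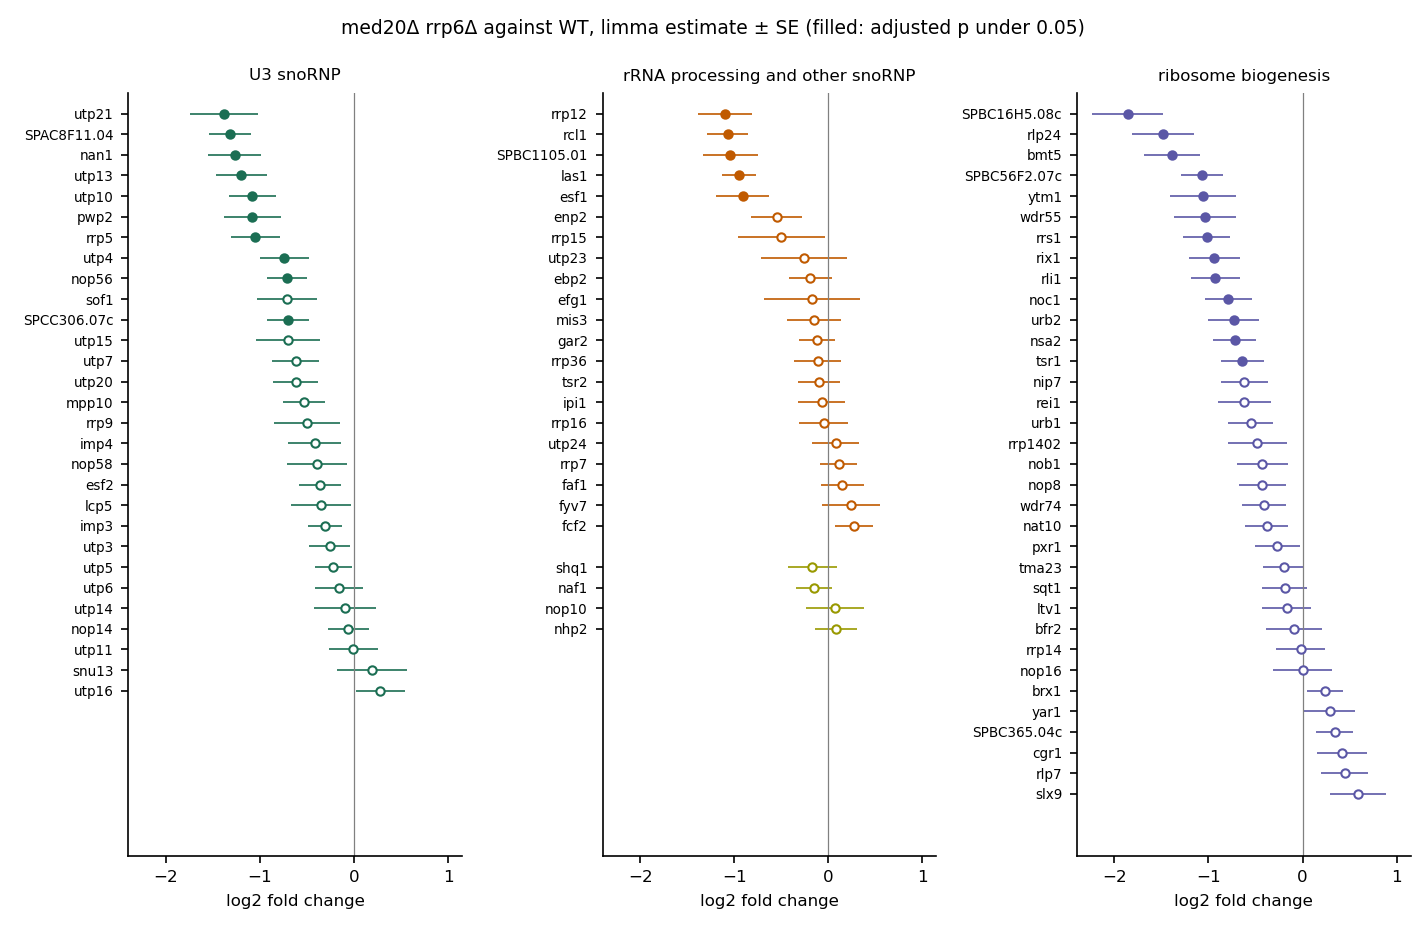
Limma log2 fold changes (± SE) of 88 ribosome biogenesis genes in med20Δ rrp6Δ against WT, sorted within each role; filled symbols have an adjusted p under 0.05. Called genes are all below 0 and lie between -0.64 (tsr1) and -1.86 (SPBC16H5.08c), and the 4 genes of other snoRNPs lie between -0.17 and 0.08.

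Of the rRNA processing genes, 5 of 21 (23.8%) fell in med20Δ rrp6Δ and 0 rose, with a median of -0.15. Protein-coding genes had 17.6% lower and a median of -0.17, so as a role these genes lay near the background. rrp12, a HEAT-repeat protein that serves subunit export in S. cerevisiae, had 1184, 2227 and 2186 normalised counts in med20Δ rrp6Δ, against 5216, 3806 and 2845 in WT. The log2 fold change was -1.10 ± 0.29 (limma adjusted p = 0.0106). It lost its call without med20Δ rrp6Δ library 1 (-0.80, adjusted p = 0.0538) and under scaling by total counts (-0.67, adjusted p = 0.0508). SPBC1105.01, described as Rrp12-like, fell by 1.04 ± 0.29 on the log2 scale (limma adjusted p = 0.0156). rcl1, a processome protein tied to cleavage of the precursor in S. cerevisiae, had 2664, 3562 and 3814 normalised counts in med20Δ rrp6Δ, against 7002, 7068 and 6837 in WT. Its 3 WT values were nearly equal and all mutant values were near or below 3814 (log2 -1.07 ± 0.22, limma adjusted p = 0.00249). las1, an endonuclease that cuts the spacer before the large-subunit RNA in S. cerevisiae, had 977.2, 1353 and 1230 in med20Δ rrp6Δ, against 2309, 2276 and 2253 in WT (log2 -0.95 ± 0.18, limma adjusted p = 0.00166). esf1 fell by 0.91 ± 0.28 on the log2 scale (limma adjusted p = 0.0231). The remaining 16 lay between -0.55 for enp2 and 0.27 for fcf2. Among them efg1, the lowest in level, had 287.7, 93.8 and 320.1 normalised counts in med20Δ rrp6Δ, against 112.3, 345.1 and 319.1 in WT, with the low values in the libraries that lie apart.

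Of the genes described as ribosome biogenesis, 13 of 34 (38.2%) fell in med20Δ rrp6Δ and 0 rose, with a median of -0.45. Protein-coding genes had 17.6% lower and a median of -0.17. The ATPase gene SPBC16H5.08c (chrII:2284364-2286432) had 3463, 9364 and 6825 normalised counts in med20Δ rrp6Δ, against 34950, 16672 and 18178 in WT. The WT values lay above all mutant values, with library 1 far above the other WT libraries. Its level in med20Δ rrp6Δ was 0.275 of that in WT (log2 -1.86 ± 0.38, limma adjusted p = 0.00242). rlp24, a relative of ribosomal protein L24 that marks large-subunit precursors in S. cerevisiae, had 1034, 2507 and 2059 in med20Δ rrp6Δ, against 7052, 3659 and 4460 in WT (log2 -1.48 ± 0.33, limma adjusted p = 0.00427). bmt5, named for an rRNA methyltransferase and the gene of this role with the lowest mean, had 87.4, 60.5 and 105.8 in med20Δ rrp6Δ, against 155.7, 303.7 and 220.0 in WT (log2 -1.39 ± 0.30, limma adjusted p = 0.0033). All 3 genes had no overlap with WT.

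SPBC56F2.07c had 156.3, 181.4 and 209 normalised counts in med20Δ rrp6Δ, against 349.1, 442.6 and 359 in WT, and its groups were well apart (log2 -1.07 ± 0.22, limma adjusted p = 0.00231). rli1, the most abundant gene of this role by mean count, had 7727, 13910 and 12507 in med20Δ rrp6Δ, against 21815, 19441 and 22009 in WT (log2 -0.93 ± 0.26, limma adjusted p = 0.0155). Large-subunit factors among those that fell were ytm1 (-1.06 ± 0.35), rrs1 (-1.02 ± 0.25), rix1 (-0.94 ± 0.27), noc1 (-0.79 ± 0.25), urb2 (-0.73 ± 0.27) and nsa2 (-0.72 ± 0.23), as known in S. cerevisiae. wdr55 also fell (-1.04 ± 0.33). tsr1, a GTPase-like factor of the small subunit, was called by a small margin (-0.64 ± 0.23, limma adjusted p = 0.0494). slx9, a small-subunit export factor in S. cerevisiae, had the highest log2 fold change, 0.59 ± 0.30, and was not called (adjusted p = 0.152 in limma). Under scaling by total counts slx9 was called higher, as were rlp7, cgr1, fcf2, brx1 and SPBC365.04c, with log2 values from 0.67 to 1.02 against 0.36 for all genes.

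The 4 tested genes of other snoRNPs had estimates between -0.17 and 0.08. nop10 had 7713, 4431 and 5280 normalised counts in med20Δ rrp6Δ, against 3977, 6430 and 6116 in WT, with overlap (log2 0.07, 95% interval -0.59 to 0.73). nhp2, another core H/ACA protein, gave 0.08 (-0.40 to 0.55). The assembly factors naf1 and shq1 gave -0.15 (-0.55 to 0.26) and -0.17 (-0.73 to 0.38). 0 of 4 tested genes were called in any of the 6 comparisons. gar1, a core H/ACA protein, had means of 4249 in med20Δ rrp6Δ and 7189 in WT in the authors' deposited table, which gives a log2 fold change of -0.76 (DESeq adjusted p = 0.44). The authors' deposited tables give gar1 0.15 in med20Δ and -0.28 in rrp6Δ (DESeq adjusted p = 1 and 0.949).

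**Figure D4:**
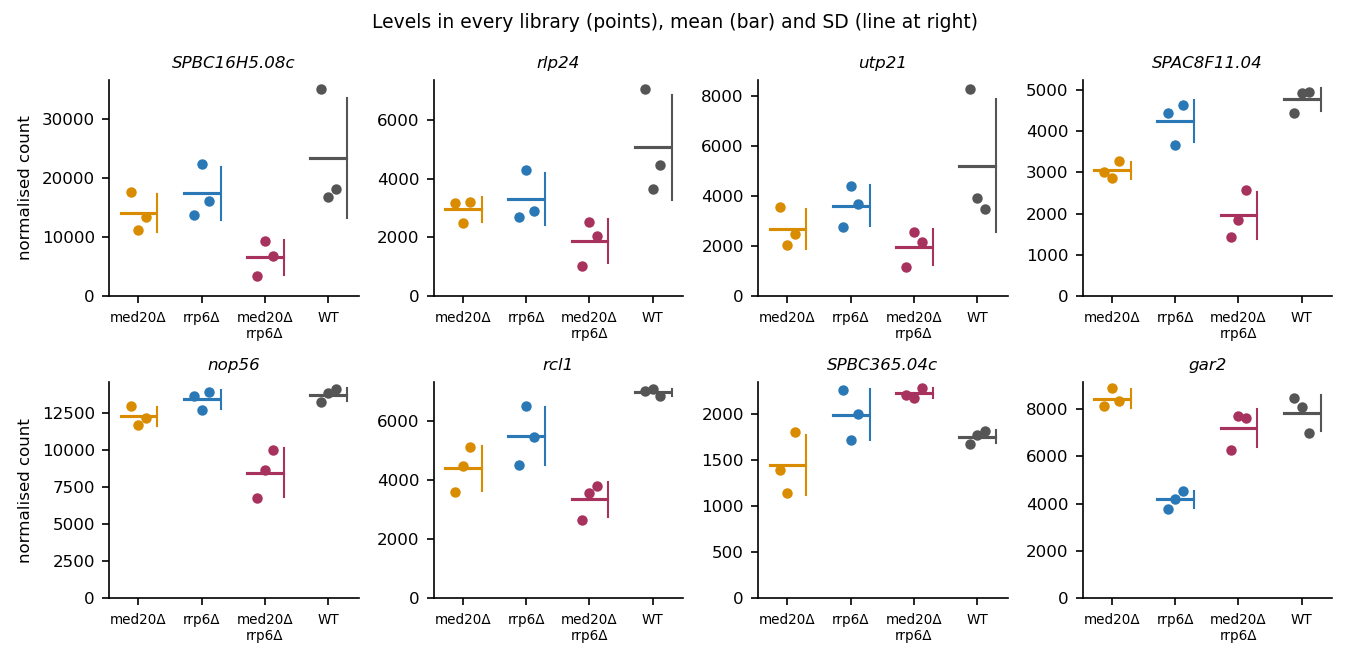
Normalised counts of 8 ribosome biogenesis genes in every library (points), with the mean (bar) and SD (line at the right, n = 3) of each strain; each axis starts at 0. The first 6 are lowest in med20Δ rrp6Δ, SPBC365.04c is lowest in med20Δ, and gar2 is lowest in rrp6Δ.

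The fall in med20Δ rrp6Δ was larger for longer genes. Split by coding length, the 31 short ribosome biogenesis genes (195 to 855 bases) had a median log2 fold change of -0.02 and 5 called lower. The 28 middle ones (870 to 1527) had -0.37 and 6, and the 29 long ones (1551 to 7482) had -0.74 and 17. Other protein-coding genes of the same lengths showed the same order at smaller size, with medians of 0.09, -0.23 and -0.32 and with 9.63%, 19.2% and 23.0% called lower. The 6 of 28 middle genes called lower are near the 19.2% of the others of that length. Of all ribosome biogenesis genes called lower, 17 are long. Spearman's correlation of log2 fold change with coding length was -0.56 over 88 ribosome biogenesis genes and -0.25 over 4735 other protein-coding genes. The single mutants went the same way, at -0.30 in med20Δ and -0.38 in rrp6Δ over the 88 genes, and -0.13 in each over the others. These correlations are across genes of the same libraries, which are not independent. Among the long genes the medians in med20Δ rrp6Δ were -1.26, -0.62 and -0.49 in libraries 1 to 3 for the ribosome biogenesis genes and -0.38, -0.21 and -0.34 for the others, relative to the WT mean. With the length trend of each library removed, 14 genes were called lower in place of 28, and the median was -0.19, against 0.01 for all protein-coding genes. The 14 include SPBC16H5.08c (-1.54), rlp24 (-1.48), bmt5 (-1.29), SPAC8F11.04 (-1.10), rrs1 (-1.06), utp21 (-1.06) and rcl1 (-0.86). Coding length can move with RNA integrity in poly(A)-selected libraries, whose part in the result was not tested.

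**Figure D5:**
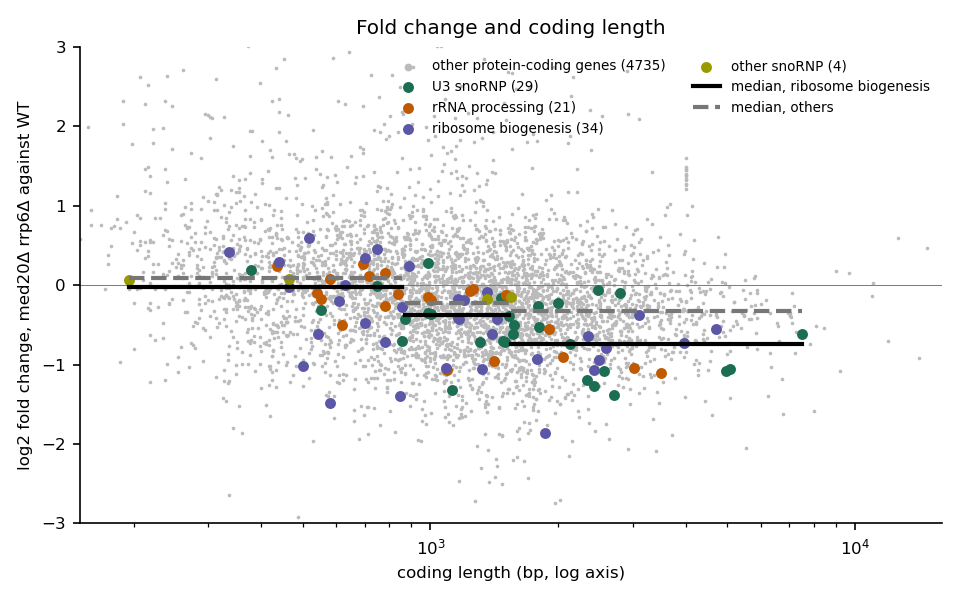
Limma log2 fold change in med20Δ rrp6Δ against WT, plotted against coding length on a log axis, for 88 ribosome biogenesis genes by role (coloured) and 4735 other protein-coding genes (grey; 53 beyond the vertical range and 8 beyond the horizontal range are not drawn). Solid and dashed lines mark the medians within the 3 length classes of the ribosome biogenesis genes, which are -0.02, -0.37 and -0.74 against 0.09, -0.23 and -0.32 for the others.

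In med20Δ against WT, 0 of 88 genes were called by limma, with 17 at an unadjusted p under 0.05 (1074 of all 6097 genes tested), and 0 of 89 by DESeq in the authors' deposited table, with 12, against 1.12% of its genes higher and 1.25% lower. All the same, 78 of 88 log2 fold changes lay below 0, and the median was -0.27, against 0.00 for all genes tested. In 24 of the 88 all 3 med20Δ libraries lay below all 3 WT libraries, against 12.3% of all genes, while in this comparison 2.05% of all genes were called lower and 2.3% higher. The U3 snoRNP genes had a median of -0.32, and 11 of 29 had separate groups. The gene nearest the threshold was SPCC306.07c, with 635.4, 486.6 and 435.7 normalised counts in med20Δ, against 915, 876.3 and 765.6 in WT (log2 -0.73 ± 0.22, limma adjusted p = 0.0774). utp13 had the lowest value, with 1085, 858.5 and 887.8 in med20Δ, against 2274, 1698 and 1403 in WT (log2 -0.90 ± 0.27, limma adjusted p = 0.0846). Both had separate groups without a call. SPAC8F11.04 had 3005, 2864 and 3279 in med20Δ, against 4442, 4918 and 4958 in WT (-0.65 ± 0.22, limma adjusted p = 0.125). Without the 4 libraries that lie apart the median was -0.31, against 0.02 for all genes. With the length trend of each library removed it was -0.24, against 0.01 for all protein-coding genes.

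In rrp6Δ against WT, 1 of 88 genes fell and 0 rose, against 1.9% of all genes lower and 6.31% higher, and the median was -0.04, against -0.06 for all genes and -0.12 for protein-coding genes. At an unadjusted p under 0.05 limma had 2 of the 88 and 1211 of all 6097 genes. By DESeq in the authors' deposited table, 0 of 89 were called, with 1 at an unadjusted p under 0.05, against 4.97% of its genes higher and 1.0% lower. The gene that fell was gar2 (chrI:1897462-1899491), which encodes a nucleolin-like nucleolar protein that S. pombe needs to make the small-subunit rRNA. It had 3798, 4209 and 4547 normalised counts in rrp6Δ, against 8463, 8087 and 6987 in WT. Every rrp6Δ value was well below the WT, med20Δ and med20Δ rrp6Δ values, which reached down to 6262. The log2 fold change was -0.91 ± 0.19 (limma adjusted p = 0.00897), while the authors' deposited table gives an adjusted p of 0.0713 (DESeq). The call was lost without rrp6Δ library 1 (-0.84, adjusted p = 0.0543). Of the other genes, las1 came nearest, with 1530, 1687 and 1831 in rrp6Δ, against 2309, 2276 and 2253 in WT (-0.44 ± 0.18, limma adjusted p = 0.187). Of the core snoRNP genes, nop56 stood at -0.04 ± 0.21, snu13 at 0.04 ± 0.37, nop58 at -0.14 ± 0.32, nop10 at -0.23 ± 0.31 and nhp2 at 0.19 ± 0.22, and none was called.

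Set against rrp6Δ, which also lacks rrp6, med20Δ rrp6Δ had 3 genes lower and 1 higher, against 3.87% and 4.46% of all genes, with a median of -0.44 against -0.03. In 26 of the 88 all 3 med20Δ rrp6Δ libraries lay below all 3 rrp6Δ libraries, against 14.2% of all genes. SPAC8F11.04 had 1443, 1855 and 2576 normalised counts in med20Δ rrp6Δ, against 4442, 3670 and 4631 in rrp6Δ (log2 -1.15 ± 0.22, limma adjusted p = 0.0051). SPBC16H5.08c had 3463, 9364 and 6825 in med20Δ rrp6Δ, against 13656, 22379 and 16006 in rrp6Δ (-1.49 ± 0.38, limma adjusted p = 0.0251). SPBC56F2.07c had 156.3, 181.4 and 209 in med20Δ rrp6Δ, against 343.7, 311.5 and 460.6 in rrp6Δ (-1.01 ± 0.22, limma adjusted p = 0.00978). All 3 had separate groups, and the next gene, nan1, missed the threshold (-0.92 ± 0.28, limma adjusted p = 0.0544). The calls of SPBC16H5.08c and SPBC56F2.07c were lost without med20Δ rrp6Δ library 1 (adjusted p = 0.11 and 0.0528) or without rrp6Δ library 3 (0.0767 and 0.0656), and that of SPBC16H5.08c also without rrp6Δ library 2 (0.0859). Without the 4 libraries that lie apart 10 genes were lower and 1 higher. The gene that rose was gar2, with 6262, 7716 and 7637 in med20Δ rrp6Δ, against 3798, 4209 and 4547 in rrp6Δ (0.78 ± 0.19, limma adjusted p = 0.0218). Its call was lost without any 1 of the rrp6Δ libraries or without med20Δ rrp6Δ library 3, with adjusted p from 0.0528 to 0.0852.

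Set against med20Δ, 3 genes fell and 1 rose in med20Δ rrp6Δ, against 5.74% and 9.04% of all genes, and the median was -0.13 against -0.07. Protein-coding genes alone had a median of -0.17, with 6.97% lower and 3.85% higher, so the ribosome biogenesis genes lay below the median of all genes and above that of protein-coding genes. The 3 that fell were SPBC56F2.07c, SPBC16H5.08c and las1. SPBC56F2.07c had 156.3, 181.4 and 209 normalised counts in med20Δ rrp6Δ, against 361.6, 332.8 and 311 in med20Δ (log2 -0.88 ± 0.22, limma adjusted p = 0.0152). SPBC16H5.08c gave -1.19 ± 0.38 and las1 -0.58 ± 0.18, both just past the threshold (limma adjusted p = 0.0481 and 0.0474). SPAC8F11.04 just missed it (-0.68 ± 0.22, limma adjusted p = 0.0516). The gene that rose was SPBC365.04c, an RNA-binding protein, with 2217, 2183 and 2292 in med20Δ rrp6Δ, against 1395, 1151 and 1806 in med20Δ (0.64 ± 0.20, limma adjusted p = 0.0415). SPBC16H5.08c and las1 kept the call without WT library 1 or med20Δ rrp6Δ library 2 and lost it without any other single library, and SPBC365.04c kept it only without WT library 1, med20Δ library 3 or rrp6Δ library 2. SPBC56F2.07c lost the call without med20Δ rrp6Δ library 1 (-0.78, adjusted p = 0.0699), which left 0 genes called, and under scaling by total counts 0 were lower and 4 higher (rlp7, brx1, SPBC365.04c and rrp7), with a median of 0.26 against 0.31 for all genes.

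The interaction asks whether the effect of both deletions differs from the sum of the single effects on the log2 scale. It was called for 0 of 88 genes by limma, with 3 at an unadjusted p under 0.05 (419 of all 6097 genes), and for 0.23% of all genes. SPBC56F2.07c came nearest, with -0.83 ± 0.31 (95% interval -1.48 to -0.17, adjusted p = 0.5 in limma). gar2 gave 0.67 ± 0.27 (0.09 to 1.25, adjusted p = 0.584 in limma). The median over the 88 genes was -0.15, against -0.04 for all genes. Intervals of this width leave differences of over 1 on the log2 scale possible in single genes. Levels of ura4 differed among the mutants, at 1.9 to 5.3 in med20Δ rrp6Δ, 1190 to 1375 in rrp6Δ and 2102 to 2762 in med20Δ. WT stood at 2032 to 2711. In the interaction, in comparisons among mutants and in those against WT, the deletions cannot be told apart from such other alleles.

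Other genes of the same pathway were counted in the same comparison, in which 17.6% of protein-coding genes were called lower with a median of -0.17. Of 15 RNA polymerase I genes, which transcribe the rRNA precursor, 6 were called lower in med20Δ rrp6Δ and 0 higher, with a median log2 fold change of -0.56. Their summed level was 17316 to 24527 normalised counts in med20Δ rrp6Δ, against 38619 to 42512 in WT. Of 20 further assembly and rRNA modification genes outside the rule, 4 were lower and 0 higher, with a median of -0.20, near the values of protein-coding genes. Of 131 cytosolic ribosomal protein genes, 56 had counts recovered in all libraries and were tested, of which 13 were lower and 2 higher, with a median of -0.70. Recovery failed only at means of 1040.54 or more, so abundant genes are missing and the values describe the 56 rather than all 131. The sums of the 56 overlapped between med20Δ rrp6Δ and WT, at 588913 to 970046 and 932335 to 1419450 normalised counts. In rrp6Δ they were 831776 to 864339, below every WT library. In med20Δ 0 of the 15 polymerase and 0 of the 20 assembly genes were called in either direction, and 1 ribosomal protein gene was lower. In rrp6Δ 0 of the polymerase and assembly genes were called, and of the ribosomal protein genes 1 was higher and 2 were lower. The 56 ribosomal protein genes had a median of -0.48 there, with 51 below 0, against a median of -0.06 for all genes. Core stress genes were high in the same 2 strains in which the biogenesis genes were low: their summed level was 96472 to 125161 normalised counts in med20Δ and 108446 to 131954 in med20Δ rrp6Δ, against 57582 to 75875 in rrp6Δ and 47300 to 76343 in WT. Of 22 stress genes, 6 were called higher in med20Δ, 1 in rrp6Δ and 10 in med20Δ rrp6Δ, and 0 lower in any of them. Of all genes tested, 2.3%, 6.31% and 15.5% were called higher in these comparisons. The log2 fold change lay below 0 for 4 of the 22 in med20Δ and 7 in med20Δ rrp6Δ. The part of a stress or growth state in the lower biogenesis genes was not tested.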

How the data were processed

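Poly(A)-selected, strand-marked (dUTP) RNA libraries of 4 S. pombe strains were sequenced, 3 samples each, per the labels' protocols. The submitters' processing notes, per the labels, name Bowtie 0.12.7 as the authors' aligner and DESeq as their count comparison. Build, annotation, counter and use of strand are not given here by any source used, so reads of a gene and of an RNA on its other strand may not be told apart. The authors deposited 3 tables, each mutant against WT, with group means of normalised signal (counts divided by size factors), their fold ratio, its log2 value, and p-values with adjusted p-values, per the file headers. Each deposited fold change equals the ratio of the means, and the adjusted p-values match a Benjamini-Hochberg adjustment over all genes.

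Each mean is a sum of 3 whole counts with fixed weights, and these counts were recovered from its digits for 99.68% of means in WT, 98.28% in med20Δ, 98.4% in rrp6Δ and 97.53% in med20Δ rrp6Δ. On simulated counts, drawn with the same spread for all genes of a strain, the recovery gave 0 wrong splits. At means of 1000 or more, a split was taken only where libraries differed at most 4-fold. Genes that vary more are missing there, and the simulation did not cover them. Intervals cover the spread between samples, and depth limits low genes. Size factors of all 12 libraries were then computed by the median of ratios. limma 3.58.1 in R 4.3.3 (mean-variance trend) tested log2(count / size factor + 1) in 6097 genes with a mean of at least 10, all 4 strains in 1 model, with Benjamini-Hochberg adjustment over those genes. Fold changes are understated for low genes by the pseudocount of 1. Coding lengths, gene positions and upstream sequences are from RefSeq ASM294v3, in which 89 of 89 gene IDs matched. Named genes are those called in a comparison (at most 8 per direction), the extremes of each role in level and in change, core members of the complexes, genes called in both directions and the uncalled gene nearest each threshold. A few more are named to complete a role, chosen after their values were seen. The genes and lists were chosen with earlier results of these data known.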

Additional observations from a re-analysis of the deposited data

How the results depend on the processing

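No paired analysis was possible because the deposited tables hold group means, and the recovered libraries carry no replicate letter. In med20Δ rrp6Δ against WT, the count of 28 genes became 14 with the length trend removed, 17 with only the 2 strains in the model, 18 re-centred on protein-coding genes, 16 (10 lower, 6 higher) scaled by total counts and 15 in the authors' deposited table, and ranged from 13 to 30 with 1 library left out. The median of -0.40 became -0.19 with the length trend removed and 0.03 scaled by total counts, and ranged from -0.62 to -0.26 with 1 library left out. Under all 23 refits with limma, 9 genes were called lower each time: rcl1, nan1, rlp24, SPAC8F11.04, las1, SPBC16H5.08c, utp10, utp13 and bmt5. Against med20Δ, the 4 calls became 4 (all higher) scaled by total counts, 1 (higher) with the length trend removed and 3 (2 higher, 1 lower) re-centred, which turned the balance of directions, with a median of 0.26 in place of -0.13 scaled by total counts. They became 2 at a mean of at least 50, 1 with only the 2 strains, 1 with protein-coding genes only and 10 without the 4 libraries that lie apart, and ranged from 0 to 5 with 1 library left out. Against rrp6Δ, the 4 calls became 11 without those 4 libraries and ranged from 1 to 9. In rrp6Δ against WT, the 1 call (gar2) became 0 in the authors' deposited table and ranged from 0 to 1, and the median of -0.04 became 0.29 scaled by total counts, with all genes at 0.27. In med20Δ, the 0 calls became 1 (lower) without the 4 libraries. Leaving out the 4 libraries, removing the length trend and keeping protein-coding genes only were chosen after seeing the data. The cause of these shifts was not tested.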

Other observations

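RNAs annotated on the strand opposite to ribosome biogenesis genes were measured in the same tables. By RefSeq positions 16 non-coding RNAs overlap 16 of the 89 genes on the other strand, and 13 of them were tested. Among the 13, SPNCRNA.856, is described as intergenic and overlaps SPAC8F11.04 by 4 bases only, and it is 1 of the RNAs called higher in rrp6Δ and in med20Δ rrp6Δ. In rrp6Δ 6 of the 13 were called higher by limma and 0 lower, against 24.4% higher among 713 tested non-coding RNAs that lie opposite any protein-coding gene. In med20Δ rrp6Δ 6 were higher and 1 was lower, against 38.6% higher and 63 of 713 lower. In med20Δ 0 were higher and 1 was lower, against 5.47% higher and 35 of 713 lower. The 46.2% higher in med20Δ rrp6Δ is near the share of all such RNAs. SPNCRNA.1042, opposite pxr1, had 241, 415 and 350 normalised counts in rrp6Δ and 262, 369 and 400 in med20Δ rrp6Δ, against 107, 90.8 and 116 in WT (log2 1.64 ± 0.28 in rrp6Δ, limma adjusted p = 0.00184). pxr1 itself stood at 0.00 ± 0.24 in rrp6Δ. SPNCRNA.795, opposite utp5, gave 1.03 ± 0.29 in rrp6Δ and 1.63 ± 0.29 in med20Δ rrp6Δ (limma adjusted p = 0.0419 and 0.000942). utp5 was not called in either strain.

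SPNCRNA.1275 lies opposite nearly all of bmt5, over 1044 bases. It was higher in med20Δ rrp6Δ, with 188, 193 and 197 normalised counts against 92.3, 84 and 57.9 in WT (log2 1.32 ± 0.27, limma adjusted p = 0.00279), while bmt5 was lower there. In rrp6Δ this RNA was also higher (1.0 ± 0.27, limma adjusted p = 0.0379), but bmt5 was not called (-0.55 ± 0.30, limma adjusted p = 0.339). Opposite rix1, SPNCRNA.1138 fell in med20Δ rrp6Δ together with rix1 (-1.15 ± 0.32 and -0.94 ± 0.27, limma adjusted p = 0.016 and 0.0179). SPNCRNA.655, opposite rrp15, had 65.8, 80.7 and 55.4 in med20Δ and 356, 302 and 405 in rrp6Δ, against 145, 171 and 178 in WT. It was lower in med20Δ (-1.29 ± 0.25, limma adjusted p = 0.00965) and higher in rrp6Δ (1.10 ± 0.25, limma adjusted p = 0.0136), and stood at 140, 142 and 217 in med20Δ rrp6Δ, near WT. rrp15 was not called in any strain. The RNA opposite gar2, SPNCRNA.770, was too low to test, at 5.77, 16.2 and 10.4 in rrp6Δ and 7.78, 2.24 and 19.3 in WT. The labels do not say how reads were assigned to strands, so values of overlapping genes are uncertain.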
